A study of Homo sapiens with 4 samples.

Results

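miR-21 is a single hairpin RNA whose arms, miR-21-5p and miR-21-3p, were followed through exosomes of colon cancer cells, and they are 2 of the 2588 mature miRNAs listed. Both were picked by name, as the entries hsa-miR-21-5p and hsa-miR-21-3p, and both were read in each of the 4 libraries. Exosomes are small vesicles released into the culture medium. They came from spheres and parental cells of a pair of human colon cancer lines, labelled HCT29 and HCT15. Spheres are floating colonies used to enrich for stem-like cells, and here they grew for 3 weeks in DMEM/F12 with N2 supplements, 10 ng/ml bFGF and 10 ng/ml EGF. Parental cells grew in complete RPMI, and an exosome-depleted form of it was conditioned for the harvest. The study asked which vesicle miRNAs matter for the malignancy of cancer stem cells. The groups, each with 1 library, are HCT29 sphere, HCT29 parental, HCT15 sphere and HCT15 parental. The growth text of both HCT29 samples names HCT15, so the origin of those libraries is taken from their titles. No group has a replicate, and no ratio between a pair of libraries has a p-value. RNA was taken from whole vesicle preparations, so fewer vesicles carrying a miRNA and fewer copies per vesicle cannot be told apart.

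A miRNA hairpin is cut to a duplex, and one strand, the guide, is loaded into Argonaute while the other, the passenger, is mostly degraded. In miR-21 the guide is the 5p arm. It is among the miRNAs most often raised in tumours, colorectal ones included, and represses the tumour suppressor PDCD4. Its gene is switched on by STAT3 and AP-1. It is not restricted to epithelium: fibroblasts and blood cells make it as well. The 3p arm is the passenger strand.

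The mature 5p sequence is shown with its seed (bases 2 to 8, the stretch that pairs with targets) in capitals, beside that of miR-590-5p, the only other entry in the RefSeq table with the same seed. The MIR21 hairpin is shown with the 5p arm in capitals.
miR-21-5p: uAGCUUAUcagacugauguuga
miR-590-5p: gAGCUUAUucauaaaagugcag
MIR21 hairpin: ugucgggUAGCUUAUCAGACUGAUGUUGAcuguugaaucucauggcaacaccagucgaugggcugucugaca
The sequences are RefSeq's on GRCh38.p14, whose table held 2281 of the 2588 listed miRNAs and 1 of the 2 arms, miR-21-5p. The hairpin lies on the plus strand at chr17:59841266-59841337, the 5p arm at chr17:59841273-59841294 and miR-590-5p at chr7:74191213-74191234. In GENCODE release 29 the hairpin is inside the gene VMP1, in an exon of a retained-intron transcript that ends at position 59842255. Of the 22 bases of miR-21-5p, 19 are paired in the predicted fold of the hairpin, among them all 7 seed bases, and the predicted free energy is -34.6 kcal/mol. Any other mature sequence in the table is at least 7 single-base edits away from miR-21-5p. miR-590-5p, which shares only the seed, had 1 read in HCT29 parental exosomes and 0 in the other libraries, where 3 reads would be 5.65 RPM (HCT29 sphere), 6.50 RPM (HCT15 sphere) and 20.5 RPM (HCT15 parental). Reads of the entries known to share this seed were therefore almost all miR-21-5p, 100% of them in 3 libraries.

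Levels are given in RPM, reads scaled by the size of their library, and every deposited value converts to whole reads. Sphere libraries were the deeper ones, with implied totals of 530920 reads for HCT29 sphere and 110666 for HCT29 parental, and 461226 for HCT15 sphere and 146648 for HCT15 parental exosomes. 1 read was worth 1.88 RPM in HCT29 sphere and 9.04 RPM in HCT29 parental exosomes, where 3 reads would be 27.1 RPM. Reads without molecular identifiers are not independent molecules, so intervals and floors cover counting error only. The listed miRNAs took 77.8 to 89.9% of those totals, and between 392 and 712 of them had a read.

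miR-21-5p was among the 11 most abundant miRNAs of each library. It stood at 13124 RPM in HCT29 sphere exosomes (95% interval 12820 to 13434, 6968 reads) and at 52898 RPM in HCT29 parental exosomes (51586 to 54233, 5854 reads). In HCT15 it stood at 31319 RPM in sphere exosomes (30818 to 31825, 14445 reads) and at 22776 RPM in parental exosomes (22018 to 23552, 3340 reads). From the highest, the order was HCT29 parental, HCT15 sphere, HCT15 parental and HCT29 sphere, and no neighbouring intervals overlapped. As a share of all listed miRNA reads, it took 1.51% in HCT29 sphere and 6.06% in HCT29 parental exosomes. In HCT15 the shares were 3.49% in sphere and 2.93% in parental exosomes.

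The passenger arm was far scarcer but kept the same order of libraries. miR-21-3p stood at 936 RPM in HCT29 sphere exosomes (856 to 1022, 497 reads) and at 6443 RPM in HCT29 parental exosomes (5980 to 6932, 713 reads). In HCT15 it stood at 4009 RPM in sphere exosomes (3829 to 4195, 1849 reads) and at 1227 RPM in parental exosomes (1055 to 1420, 180 reads). Neighbouring intervals did not overlap here either, although HCT29 sphere and HCT15 parental came close. For both arms this lowest pair changed places when levels were set against 7 miRNAs commonly abundant in vesicles. It also did so under the planned TMM factors and under DESeq2 size factors, but not as shares of the listed miRNA reads. Together the arms held 1.62% of the listed miRNA reads in HCT29 sphere and 6.80% in HCT29 parental exosomes, and 3.93% in HCT15 sphere and 3.08% in HCT15 parental exosomes.

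**Figure D1:**
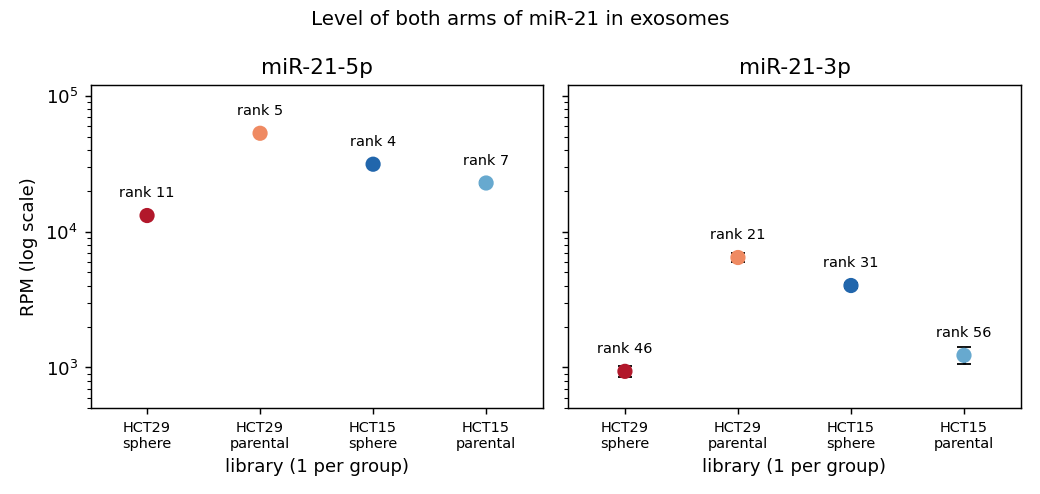
RPM of miR-21-5p (left) and miR-21-3p (right) in the 4 libraries on a log scale, with 95% exact counting intervals as bars (hidden by the points where narrow) and the rank among 2588 listed miRNAs above each point. In RPM, HCT29 parental exosomes were highest and HCT29 sphere exosomes lowest for both arms.

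By rank, miR-21-5p was 11th in HCT29 sphere and 5th in HCT29 parental exosomes, and 4th in HCT15 sphere and 7th in HCT15 parental exosomes. Its 3p partner ranked 46th in HCT29 sphere and 21st in HCT29 parental exosomes, and 31st in HCT15 sphere and 56th in HCT15 parental exosomes. In HCT29 sphere exosomes miR-21-5p stood between miR-151a-3p (21322 RPM) above and let-7f-5p (11548 RPM) below, with miR-181a-5p and miR-125a-5p a place further. In HCT29 parental exosomes miR-191-5p (62341 RPM) and miR-192-5p were above it, and miR-181a-5p (28871 RPM) and miR-92a-3p below. In HCT15 sphere exosomes its neighbours were miR-22-3p (32958 RPM) and miR-10b-5p above, and miR-92a-3p (25740 RPM) and miR-191-5p below. In HCT15 parental exosomes they were miR-182-5p (26131 RPM) and miR-10b-5p above, and let-7b-5p (22203 RPM) and miR-22-3p below. Against miR-10a-5p, the most abundant miRNA of every library, miR-21-5p reached 6.45% in HCT29 sphere and 24.9% in HCT29 parental exosomes, and 7.26% in HCT15 sphere and 10.2% in HCT15 parental exosomes. miR-10a-5p itself stood at 203614 RPM in HCT29 sphere and 212296 RPM in HCT29 parental exosomes. In HCT15 it stood at 431335 RPM in sphere (48.0% of listed miRNA reads) and 224238 RPM in parental exosomes (28.8%). The lower percentage in HCT15 spheres is thus not a lower RPM of miR-21-5p.

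HCT29 spheres were set against HCT29 parental cells to see how sphere culture relates to vesicle miR-21 in this line. Both arms were lower in sphere exosomes, miR-21-5p 4.03-fold (3.89 to 4.17) and miR-21-3p 6.88-fold (6.13 to 7.73). Their log2 ratios of RPM + 1 were -2.01 and -2.78. Among 224 miRNAs with at least 10 reads in either library, 36.2% were at least 2-fold lower and 23.2% at least 2-fold higher, and the median log2 ratio was -0.57. Relative to that median the 5p arm lay at -1.44 and the 3p arm at -2.21 on the log2 scale. Of the 224, 40 had a lower ratio than miR-21-5p and 22 a lower one than miR-21-3p. A miRNA could enter the 224 at a lower RPM through the deeper sphere library, so the shares past 2-fold depend on depth. With reads drawn down at random to 110666 per library, 52 higher and 81 lower became 24 and 74 among miRNAs still reaching 10 reads. TMM factors computed on all listed miRNAs put miR-21-5p at -0.84, within 2-fold, and miR-21-3p at -1.61, and moved the median of the measured miRNAs by 1.15.

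The same question in HCT15 gave ratios above 1. miR-21-5p was 1.38 times its parental RPM in sphere exosomes (1.32 to 1.43), a log2 ratio of 0.46 that is within 2-fold. miR-21-3p was 3.27-fold higher in sphere exosomes (2.80 to 3.83), a log2 ratio of 1.71. Of 305 miRNAs measured in this line, 32.1% were at least 2-fold higher and 28.2% at least 2-fold lower, and the median log2 ratio was -0.12. Of those 305, 120 had a higher ratio than miR-21-5p and 79 a higher one than miR-21-3p. These counts and shares also depend on the deeper sphere library. At equal depth, 98 higher and 86 lower became 54 and 75 among miRNAs still reaching 10 reads. TMM factors put miR-21-5p at 1.07, past 2-fold, with the median of all measured moved by 0.61. Under each of the 10 alternatives in scaling, pseudocount and depth, both arms kept a ratio above 1 in HCT15 and below 1 in HCT29.

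**Figure D2:**
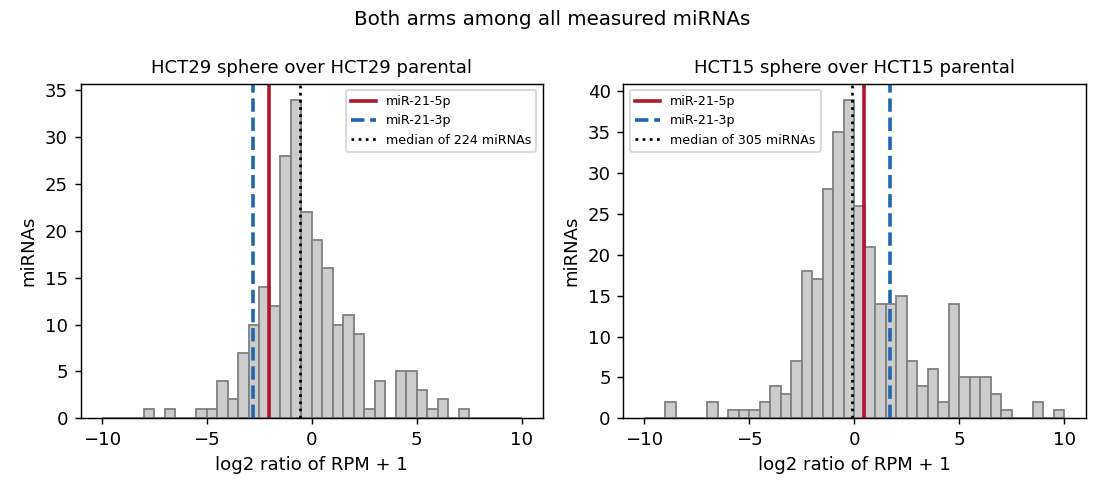
Distribution of log2 ratios (sphere over parental, RPM + 1) of all measured miRNAs in HCT29 (left) and HCT15 (right), with miR-21-5p as the solid line, miR-21-3p as the dashed line and the median as the dotted line. The arms lay at -2.01 and -2.78 in HCT29, left of the median, and at 0.46 and 1.71 in HCT15, right of it.

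The lines therefore ran opposite ways. The log2 ratio of sphere over parental differed between HCT29 and HCT15 by -2.47 for miR-21-5p and by -4.49 for miR-21-3p, and with 1 library per group that difference cannot be tested. Among 188 miRNAs measured in both lines, 37 had a more negative difference than miR-21-5p and 14 a more negative one than miR-21-3p. Of the 188, 49 (26.1%) were lower in HCT29 spheres and higher in HCT15 spheres by any amount, both arms of miR-21 among them. At least 2-fold lower in HCT29 spheres and at least 2-fold higher in HCT15 spheres were 9.57% of the 188, that is 18 miRNAs, miR-21-3p included.

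Between the lines, HCT29 parental exosomes held more of both arms than HCT15 parental exosomes, and HCT29 sphere exosomes less than HCT15 sphere exosomes. These ratios reuse the 4 libraries above and are not separate evidence. Among parental exosomes, miR-21-5p was 2.32-fold higher in HCT29 (2.23 to 2.42) and miR-21-3p 5.25-fold higher (4.45 to 6.22), where 22.8% of 224 measured miRNAs were higher by 2-fold or more, 46.4% were lower by as much and the median log2 ratio was -0.84. On the same log2 scale the arms stood at 1.22 and 2.39, and as shares of listed reads without miR-10a-5p the 5p arm came to 0.96, just within 2-fold. Among sphere exosomes, miR-21-5p was 2.39-fold lower in HCT29 (2.32 to 2.46) and miR-21-3p 4.28-fold lower (3.88 to 4.74). There 56.0% of 325 measured miRNAs were at least 2-fold lower, 25.2% at least 2-fold higher and the median log2 ratio was -1.47. The arms stood at -1.25 and -2.10, with 169 of the 325 below miR-21-5p and 141 below miR-21-3p. Between sphere exosomes, 5 of the 10 alternatives in scaling, pseudocount and depth kept miR-21-5p at least 2-fold lower. It came within 2-fold under planned TMM factors (-0.80), DESeq2 size factors (-0.45) and scaling on the reference miRNAs of vesicles (-0.69). TMM within the pair (-0.61) and TMM on all listed miRNAs (-0.45) also put it within 2-fold. With DESeq2 size factors the median of all measured moved by 0.79.

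**Figure D3:**
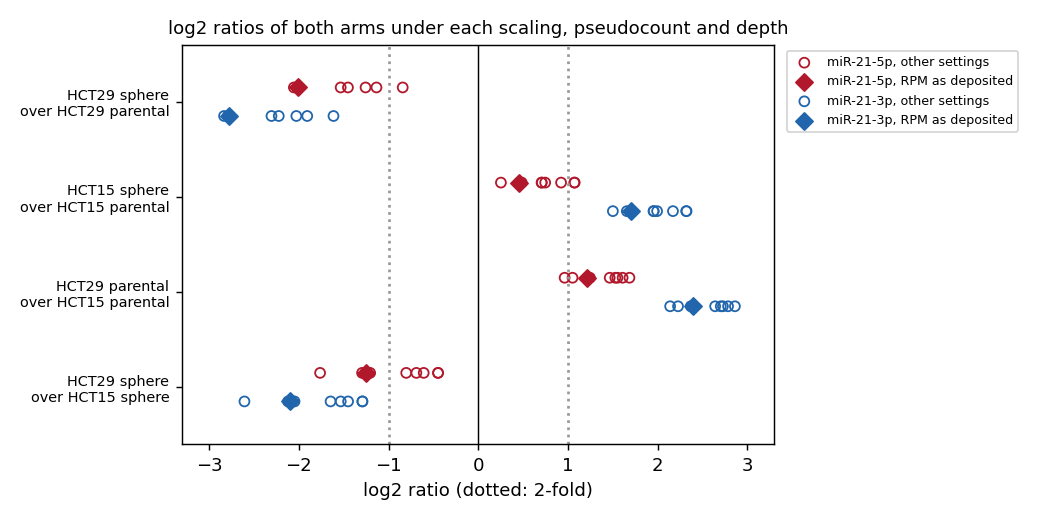
log2 ratios of miR-21-5p (red, upper of each pair) and miR-21-3p (blue, lower) in the 4 comparisons, with RPM as deposited as diamonds, the 10 alternatives in scaling, pseudocount and depth as open circles, and 2-fold as dotted lines. No ratio crossed 0, the 3p arm stayed past 2-fold throughout, and the 5p arm crossed a 2-fold line in each comparison.

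With the lines as the only replicates of culture, limma was fitted to log2(RPM + 1) of 222 miRNAs, with line and culture as terms and 1 residual degree of freedom. The culture effect (sphere over parental) of miR-21-5p was -0.78 (SE 1.11) with a limma Benjamini-Hochberg adjusted p of 0.968, and it was lower in 1 of 2 lines. That of miR-21-3p was -0.54 (SE 1.30), adjusted p 0.968 by limma, likewise lower in 1 of 2 lines. Neither arm passed an adjusted p of 0.05, nor did any other miRNA (0.00% of 222). An unadjusted limma p under 0.05 was found for 12 of the 222, near the share that this threshold gives without any effect. The unadjusted counts were 3 by edgeR, 10 by DESeq2 and 12 by limma voom. At an adjusted p under 0.05, edgeR called 0, DESeq2 1 and limma voom 1, neither of these calls being an arm of miR-21. The line effect (HCT29 over HCT15) was -0.02 (SE 1.11) for miR-21-5p and 0.15 (SE 1.30) for miR-21-3p, with limma adjusted p of 0.998 and 0.957, where 12.6% of the 222 passed. These means average ratios of opposite sign.

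The balance between the arms is read within a library and so does not depend on scaling between libraries. The 5p arm outnumbered the 3p arm 14.0 to 1 in HCT29 sphere exosomes (12.8 to 15.4) and 8.21 to 1 in HCT29 parental exosomes (7.59 to 8.89). In HCT15 the ratio was 7.81 to 1 in sphere exosomes (7.44 to 8.20) and 18.6 to 1 in parental exosomes (16.0 to 21.7). Expressed as the part of miR-21 reads that came from the 3p arm, this is 6.66% in HCT29 sphere (6.10 to 7.25) and 10.9% in HCT29 parental exosomes (10.1 to 11.6). In HCT15 it is 11.3% in sphere (10.9 to 11.8) and 5.11% in parental exosomes (4.41 to 5.89). The passenger share was high in HCT29 parental and HCT15 sphere exosomes, whose intervals overlap, and low in the other libraries. The libraries with the higher 3p share were also those with the higher miR-21-5p level.

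**Figure D4:**
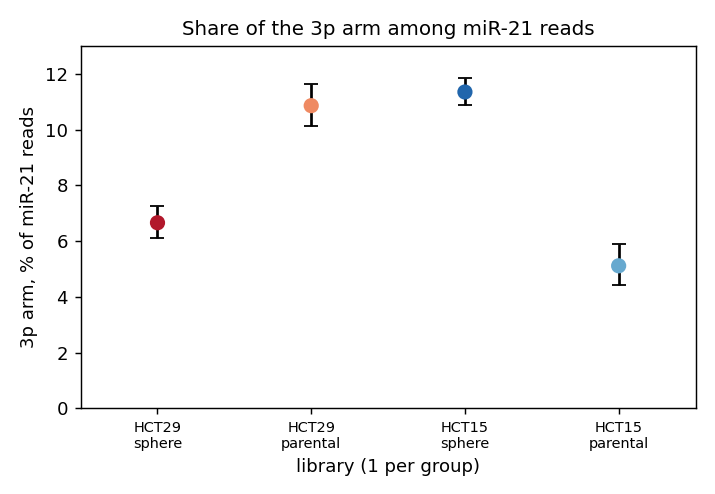
Share of miR-21 reads that came from the 3p arm (percent) in each library, with 95% exact counting intervals as bars. HCT29 parental (10.9%) and HCT15 sphere (11.3%) exosomes stood above HCT29 sphere (6.66%) and HCT15 parental (5.11%) exosomes.

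Set against parental exosomes, the arm ratio (5p over 3p) was 1.71-fold higher in HCT29 spheres (exact conditional interval 1.51 to 1.93) and 2.38-fold lower in HCT15 spheres (2.03 to 2.80). Between parental exosomes it was 2.26-fold lower in HCT29 (1.91 to 2.69), and between sphere exosomes 1.79-fold higher in HCT29 (1.62 to 1.99). Changes of this size were common among other hairpins with at least 10 reads of each arm in both libraries. In HCT15, 26.7% of 30 hairpins had an arm ratio at least 2-fold lower in spheres and 36.7% one at least 2-fold higher, and 13 changed by more than miR-21. In HCT29, 21.4% of 14 were at least 2-fold higher and 28.6% at least 2-fold lower, and 7 changed by more than miR-21. Between parental exosomes, 41.7% of 12 hairpins had an arm ratio at least 2-fold lower in HCT29 and 33.3% one at least 2-fold higher. Between sphere exosomes, 41.7% of 24 had one at least 2-fold higher in HCT29 and 33.3% one at least 2-fold lower. Of 11 hairpins measured in both lines, 6 differed between the lines by at least as much as miR-21, namely let-7d, miR-106b, miR-1307, miR-141, miR-200a and miR-21 itself.

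Ordered from the most 5p-biased, miR-21 was 9th of 33 hairpins in HCT29 sphere and 5th of 15 in HCT29 parental exosomes, and 23rd of 50 in HCT15 sphere and 12th of 38 in HCT15 parental exosomes. Its neighbours in that order were let-7b (23.8 to 1) and miR-30e (4.75 to 1) in HCT29 sphere and miR-31 (36.7 to 1) and let-7d (6.08 to 1) in HCT29 parental exosomes. In HCT15 they were miR-15b (9.57 to 1) and let-7d (2.09 to 1) in sphere and let-7e (21.3 to 1) and miR-30e (10.8 to 1) in parental exosomes.

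The miRNAs whose pattern over the 4 libraries was most like that of miR-21-5p were miR-148b-3p, miR-425-3p, miR-374b-5p and miR-26b-5p. All 4 were lower in HCT29 sphere than in HCT29 parental exosomes. In HCT15 spheres miR-148b-3p and miR-425-3p were higher (log2 ratios 0.21 and 0.34), while miR-374b-5p and miR-26b-5p were lower (-0.16 and -0.35), unlike miR-21-5p. Likeness is the Euclidean distance between log2(RPM + 1) profiles centred on their own means, over 4 libraries and 221 other miRNAs, and is a description. The distances ran from 0.63 to 0.88, against a median of 2.51, and miR-21-3p came 10th, at 1.05. miR-148b-3p stood at 303 RPM in HCT29 sphere and 732 RPM in HCT29 parental exosomes, and at 631 RPM in HCT15 sphere and 546 RPM in HCT15 parental exosomes. miR-425-3p and miR-374b-5p rest on 4 to 16 reads a library. For miR-21-3p the nearest were miR-31-3p (distance 0.68, on 3 to 23 reads), miR-96-5p (0.80), miR-21-5p (1.05) and miR-335-3p (1.36), against a median of 3.15. miR-96-5p, of the miR-183 cluster raised in colorectal tumours, stood at 37.7 RPM in HCT29 sphere and 145 RPM in HCT29 parental exosomes, and at 189 RPM in HCT15 sphere and 40.9 RPM in HCT15 parental exosomes, on 6 to 87 reads.

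A list of 12 other miRNAs often raised in colorectal tumours was set beside miR-21, and 11 were measured in each comparison. In HCT29 spheres 2 were at least 2-fold higher and 6 lower, where 23.2% and 36.2% of all measured miRNAs were, with a median log2 ratio of -1.07 against -0.57 over all measured. In HCT15 spheres 2 were higher and 3 lower, where 32.1% and 28.2% of all measured were, with a median of -0.43 against -0.12. TMM factors over the 4 libraries made these 4 higher and 4 lower in HCT29, beside 76 higher and 48 lower of the 224 measured, and 2 higher and 0 lower in HCT15, beside 123 higher and 51 lower of the 305. miR-183-5p was, like miR-21, lower in HCT29 spheres and higher in HCT15 spheres, at 7786 RPM in HCT29 sphere and 17919 RPM in HCT29 parental exosomes, and 7992 RPM in HCT15 sphere and 1732 RPM in HCT15 parental exosomes. In RPM, unlike miR-21, it was lowest in HCT15 parental exosomes, and between sphere exosomes its log2 ratio (HCT29 over HCT15) was -0.04. Under planned TMM factors, DESeq2 size factors or the reference miRNAs of vesicles, both arms of miR-21 were also lowest in HCT15 parental exosomes. The most abundant member of its cluster, miR-182-5p, ran the other way from miR-21, at 43534 RPM in HCT29 sphere and 19654 RPM in HCT29 parental exosomes, and 18800 RPM in HCT15 sphere and 26131 RPM in HCT15 parental exosomes. miR-31-5p was at 1680 RPM in HCT29 sphere and 3316 RPM in HCT29 parental exosomes, and 3818 RPM in HCT15 sphere and 4678 RPM in HCT15 parental exosomes. miR-221-3p, which represses the cell cycle inhibitor p27, was lower in the spheres of each line, at 1399 RPM in HCT29 sphere and 7310 RPM in HCT29 parental exosomes, and 4260 RPM in HCT15 sphere and 7528 RPM in HCT15 parental exosomes. miR-92a-3p, of the miR-17-92 cluster, was higher in HCT29 spheres and lower in HCT15 spheres, the other way round from miR-21, at 45653 RPM in HCT29 sphere and 25844 RPM in HCT29 parental exosomes, and 25740 RPM in HCT15 sphere and 77860 RPM in HCT15 parental exosomes. Its cluster was not uniform. The listed members miR-17-5p (log2 ratios -4.01 in HCT29 and -1.33 in HCT15) and miR-20a-5p (-5.11 and -1.23) were lower in the spheres of both lines.

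Because fibroblasts and blood cells also make miR-21, markers of other cell types were read in the same libraries. Of the 8 intestinal epithelial miRNAs all had reads everywhere, with a summed level of 87394 RPM in HCT29 sphere and 97952 RPM in HCT29 parental exosomes, and 18316 RPM in HCT15 sphere and 9328 RPM in HCT15 parental exosomes. The HCT29 sums were mostly miR-192-5p, at 75266 RPM in sphere and 68268 RPM in parental exosomes. The members went both ways, with 1 at least 2-fold higher and 3 lower in HCT29 spheres, and 4 higher and 2 lower (miR-200b-3p and miR-200c-3p) in HCT15 spheres. In HCT15, miR-215-5p (46 sphere reads, 4 parental) reached 10 reads only in spheres. Of all measured miRNAs, 23.2% were at least 2-fold higher and 36.2% lower in HCT29 spheres, and 32.1% and 28.2% in HCT15 spheres. The summed level of the 5 fibroblast and smooth muscle markers was, like miR-21, lower in HCT29 spheres and higher in HCT15 spheres, at 181 RPM in HCT29 sphere and 1473 RPM in HCT29 parental exosomes, and at 4479 RPM in HCT15 sphere and 1180 RPM in HCT15 parental exosomes. In HCT29 only miR-143-3p and miR-199a-3p reached 10 reads in either library. Both were at least 2-fold lower in spheres, as were 36.2% of all measured miRNAs, but miR-199a-3p (7 sphere reads, 29 parental) entered only through the parental library. In HCT15 4 of the 5 reached 10 reads and all 4 were at least 2-fold higher, as were 32.1% of all measured. However, miR-199a-5p (176 sphere reads, 0 parental) and miR-214-3p (37 and 0) entered only through the sphere library. Their direction was therefore fixed by the filter and is no separate result. Of these 5, 2 had a read in HCT29 sphere and 3 in HCT29 parental exosomes, and 5 in HCT15 sphere and 3 in HCT15 parental exosomes, with miR-199a-5p and miR-214-3p at 0 outside HCT15 spheres. Their part in the miR-21 levels was not tested. The summed level of the 7 blood cell markers was lower in the spheres of both lines, at 360 RPM in HCT29 sphere and 1645 RPM in HCT29 parental exosomes, and 152 RPM in HCT15 sphere and 4023 RPM in HCT15 parental exosomes. It was mostly miR-486-5p. In HCT29 2 of the 7 reached 10 reads and both were at least 2-fold lower in spheres, beside 36.2% of all measured miRNAs. Of these, miR-142-5p (9 sphere reads, 14 parental) entered only through the parental library. In HCT15 4 reached 10 reads and all 4 were at least 2-fold lower in spheres, beside 28.2% of all measured. There miR-451a (0 sphere reads, 64 parental) and miR-150-5p (2 and 17) entered only through the parental library. Their direction was therefore fixed by the filter. miR-150-5p had 8 reads in HCT29 sphere and 1 in HCT29 parental exosomes, and miR-144-3p had none in HCT15. The erythroid miR-451a and the myeloid miR-223-3p were at 0 in the spheres of both lines, and the part of blood cell RNA in the miR-21 levels was not tested. The arms of the endothelial miR-126 summed to 450 RPM in HCT29 sphere and 849 RPM in HCT29 parental exosomes, and 158 RPM in HCT15 sphere and 934 RPM in HCT15 parental exosomes. The liver miRNA miR-122-5p had 1 read, in HCT29 parental exosomes.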

How the data were processed

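Small RNA was sequenced from exosomes purified by differential ultracentrifugation (TruSeq small RNA libraries, per the labels' protocols). The authors deposited RPM per mature miRNA, which the file headers state for HCT15. The HCT29 headers state no unit, and RPM was inferred there from values that are multiples of 1 step, like those of HCT15. Per the submitters' processing notes the genome build was hg19; which aligner, counter and miRNA annotation were used is not given in the sources used here. Reads were recovered as whole multiples of that step (100% of nonzero values within 0.1 read). Ratios carry exact 95% Clopper-Pearson intervals on reads, arm ratio changes exact conditional ones (scipy 1.17.1); both cover counting error only. The test was limma 3.58.1 with a mean-variance trend, on miRNAs reaching 10 reads in 2 or more libraries. Its effect estimates were checked on simulated reads with the same culture change in both lines. Changes of opposite sign in the lines were not simulated. Both lines pair the samples, so line is a term of that fit. Alternatives used edgeR 4.0.16 and DESeq2 1.42.0. Folding used ViennaRNA 2.7.2.

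Members and lists were chosen with earlier results of these data known. Named besides the arms were rank neighbours, seed sharers, the 4 nearest profiles, up to 4 members per list, miR-10a-5p and arm-ratio neighbours. Names of hairpins with large arm changes, of markers at 0 and of further tumour-list members of the named clusters were added after their values were seen.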

Additional observations from a re-analysis of the deposited data

Results flagged for a closer look

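The sphere over parental contrast ran opposite ways in the lines for 3 quantities of miR-21, and with 1 library per group these differences were not tested. The 3 are not separate evidence, since all come from the same 4 libraries. Apart from the added 1 RPM, the arm ratio change is the 5p log2 ratio minus the 3p one. For miR-21-5p the log2 ratio was -2.01 in HCT29 and 0.46 in HCT15, a difference of -2.47. For miR-21-3p it was -2.78 in HCT29 and 1.71 in HCT15, a difference of -4.49. For the ratio of 5p to 3p reads the log2 change was 0.77 in HCT29 and -1.25 in HCT15, a difference of 2.02, and of 11 hairpins measured in both lines 9 changed in opposite directions.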

How the results depend on the processing

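In all, 232 values were recomputed under an alternative. Among ratios, arm ratios and fits, 80 stayed the same, 56 moved and 8 reversed, the reversals all being effects in the fit over 4 libraries. Among shares, ranks and counts past 2-fold, 44 stayed the same and 44 moved. The log2 ratios of both arms kept their sign in all 4 comparisons, and miR-21-3p stayed past 2-fold in each. The arm ratios and their changes moved by less than the counting interval with 0.5 read added or with reads thinned to 110666 per library. Sizes moved with scaling. In the order HCT29 sphere over parental, HCT15 sphere over parental, HCT29 over HCT15 parental and HCT29 over HCT15 sphere, the log2 ratios were as follows. Planned TMM factors (222 miRNAs, 4 libraries) gave miR-21-5p at -1.26, 1.07, 1.53 and -0.80 and miR-21-3p at -2.03, 2.32, 2.70 and -1.65. DESeq2 size factors gave -1.13, 0.92, 1.61 and -0.45, and -1.91, 2.17, 2.78 and -1.29. Shares without miR-10a-5p gave, after the first comparison, 0.71, 0.96 and -1.76, and 1.95, 2.14 and -2.61, and shares of all listed reads gave miR-21-5p 0.25, 1.05 and -1.20. Chosen after seeing the data were TMM on all listed miRNAs (-0.84, 1.07, 1.46 and -0.45, and -1.61, 2.32, 2.64 and -1.29), TMM within each pair of libraries (-1.45, 0.75, 1.68 and -0.61, and -2.22, 1.99, 2.86 and -1.45) and the geometric mean of the 7 reference miRNAs of vesicles (-1.53, 0.71, 1.55 and -0.69, and -2.30, 1.95, 2.73 and -1.53).

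In the fit over 4 libraries, the culture effect of miR-21-3p reversed to 0.15 under TMM scaling, 0.14 under edgeR, 0.13 under DESeq2 and 0.14 under limma voom. The line effect of miR-21-5p reversed to 0.36, 0.36, 0.58 and 0.30 in the same order. Adjusted p for the arms ranged no lower than 0.828 in any fit. DESeq2 and limma voom each called 1 miRNA for culture, against 0. For line, 28 calls became 10 under edgeR, 16 under DESeq2, 17 without a filter, 5 with a pseudocount of 0.1 RPM and 7 with no replicate block, that is with only the term tested. Without the block neither arm's call changed. With both terms no library could be left out of the fit, since no residual degree of freedom would be left for a test; either line alone gives the ratios above.

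Of the counts of miRNAs past 2-fold, the 81 lower in HCT29 spheres became 48 under TMM, 47 under DESeq2 factors, 52 under TMM within the pair, 36 under TMM on all listed miRNAs, 44 at 50 reads or more and 236 without a filter. The 52 higher there became 84 under DESeq2 factors, 94 under TMM on all listed miRNAs, 22 at 50 reads, 176 without a filter and 24 thinned. In HCT15 spheres, 86 lower became 51 under TMM (either set), 46 at 50 reads and 227 without a filter, and 98 higher became 44, 390 and, thinned, 54. In HCT29 over HCT15 parental exosomes, 51 higher and 104 lower became 26 and 48 at 50 reads and 156 and 289 without a filter. Between sphere exosomes, 82 higher and 182 lower became 42 and 96, 172 and 509, and thinned 40 and 102. The cause of these moves was not tested, beyond the number of miRNAs that each filter or depth leaves. Depth limits the 3p arm most, with 180 reads in HCT15 parental exosomes.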

Other observations

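Set against the geometric mean of 7 miRNAs commonly abundant in vesicles (among them miR-16-5p, miR-103a-3p, miR-191-5p and miR-93-5p), miR-21-5p stood at 5.88 times that mean in HCT29 sphere and 17.0 times in HCT29 parental exosomes, and at 9.49 times in HCT15 sphere and 5.81 times in HCT15 parental exosomes. miR-21-3p stood at 0.420 and 2.07 times it in HCT29 sphere and parental exosomes, and at 1.21 and 0.313 times in HCT15 sphere and parental exosomes. On this scale HCT15 parental exosomes, rather than HCT29 sphere exosomes, were the lowest for both arms, while the upper places were as in RPM. For miR-21-5p that swap was narrow, 5.81 against 5.88. Of the 7, miR-484 was scarce, with 30 reads in HCT29 sphere, 4 in HCT29 parental, 145 in HCT15 sphere and 33 in HCT15 parental exosomes. The geometric mean itself was 2230 RPM in HCT29 sphere and 3106 RPM in HCT29 parental exosomes, and 3300 RPM in HCT15 sphere and 3919 RPM in HCT15 parental exosomes. In HCT29 spheres 1 of the 7 was at least 2-fold higher and 3 lower, where 23.2% and 36.2% of all measured miRNAs were, with a median log2 ratio of -0.04 against -0.57 over all measured. In HCT15 spheres 1 was higher and 3 lower, where 32.1% and 28.2% of all measured were, with a median of -0.65 against -0.12.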
